A study of Homo sapiens with 6 samples.

Results

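The 7 genes described here encode the zinc finger and basic helix-loop-helix repressors of the SNAI, ZEB and TWIST families: SNAI1, SNAI2, SNAI3, ZEB1, ZEB2, TWIST1 and TWIST2. They were chosen by name, and each stood on 1 of the 62700 gene rows in a table of estimated counts from A673. A673 is an established Ewing sarcoma cell line that carries EWS-FLI1, which joins part of EWSR1 to the DNA-binding end of FLI1. The groups were 3 libraries of parental A673 cells with EWS-FLI1 intact and 3 libraries of A673 cells in which EWS-FLI1 was knocked out. Both were grown in the same serum-supplemented medium, and the series asks what EWS-FLI1 does to the transcriptome. The labels do not state whether the knockout is a single clone or a pool, nor whether replicates were separate cultures, so the p-values measure only library-to-library spread, and that spread may be technical.

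SNAI and ZEB proteins bind E-box motifs through zinc fingers and recruit corepressors to shut off epithelial genes such as E-cadherin, the main adhesion protein of epithelial cells. TWIST proteins bind E-boxes as dimers with E proteins such as TCF3, TCF4 and TCF12. All 3 families are known as drivers of epithelial-mesenchymal transition (EMT), in which cells lose epithelial junctions and gain mesenchymal adhesion and matrix genes. In normal development they act in mesoderm, neural crest and skeletal precursors, and Ewing sarcoma is itself a mesenchymal tumour.

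Libraries held between 301605666 and 342624492 estimated counts, and a floor of 3 counts corresponded to between 0.00752 and 0.0117 CPM (counts scaled to a common library size), a limit that covers counting error only. Levels are CPM after TMM scaling, and a log2 fold change compares knockout to parental. Adjusted p-values come from edgeR's quasi-likelihood test with Benjamini-Hochberg adjustment over 28485 genes. The standard error (SE) was derived from that test, as the absolute log2 fold change over the square root of its F statistic. The fusion cannot be checked from counts of whole genes. The 8 Ewing sarcoma markers (such as NKX2-2 and NR0B1) were all lower in the knockout, with a summed level of 3388 to 3476 CPM in parental and 760.5 to 809.4 CPM in knockout libraries. Of 5 epithelial cell markers 3 were tested, with 1 higher and 1 lower. The 5 summed to 0.609 to 0.840 CPM before and 25.7 to 26.3 CPM after knockout. The 5 fibroblast markers (such as COL1A1 and LUM) were all higher, from 264.6 to 284.2 CPM summed up to 54692 to 56340 CPM. Of 5 leukocyte markers 3 were tested and were higher (4.99 to 5.97 CPM summed before, 12.9 to 14.7 CPM after knockout), and of 4 endothelial markers 2 were higher (0.522 to 0.630 and 8.56 to 9.22 CPM). Of 5 melanocyte markers 3 were tested, with 1 higher and 1 lower. The 5 summed to 1.33 to 1.49 and 0.836 to 0.991 CPM, and 0 of all these markers were at 0 in every library. These marker sums differed between the same 2 groups that every comparison below sets side by side, and their part in the results was not tested. In bulk RNA, fewer cells of a type and less RNA per cell cannot be told apart.

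All 7 genes passed the filter on low counts. Of these, 5 rose in the knockout (TWIST2, SNAI2, ZEB1, SNAI1 and SNAI3), ZEB2 fell, and TWIST1 did not pass the test. Among all tested genes 73.8% passed in either direction, 36.3% higher and 37.5% lower, so having passed the test does not by itself set these genes apart. The 2 genotypes did not overlap in 6 of the 7 genes, against 76.7% of all tested genes. SNAI1, SNAI2, SNAI3, ZEB1 and TWIST2 passed the test with a fold beyond 2, as did 42.1% of all tested genes in either direction. The median log2 fold change of the 7 was 1.27, beside -0.06 over all tested genes. The sizes differed widely. Only 2.78% of tested genes had a larger absolute log2 fold change than TWIST2, 7.69% than SNAI2 and 12.1% than ZEB1, against 35.1% for SNAI1, 35.7% for SNAI3 and 43.5% for ZEB2.

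**Figure D1:**
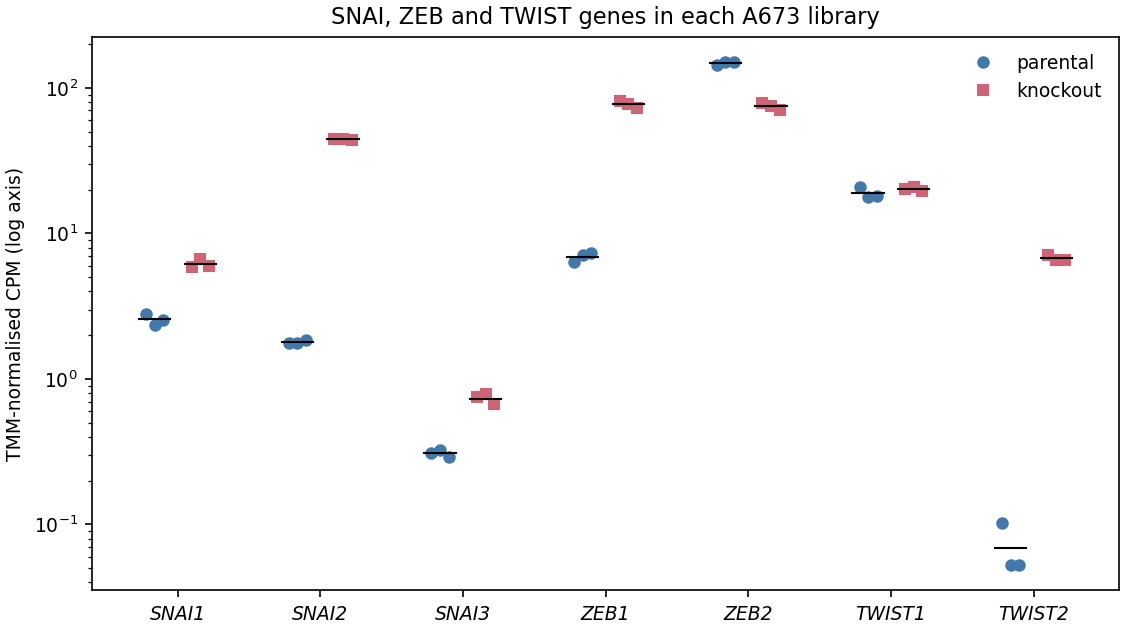
TMM-normalised CPM (log axis) of the 7 genes in each of the 3 parental and 3 knockout libraries; points are libraries and lines are group means. SNAI2, ZEB1 and TWIST2 stand far higher in the knockout, SNAI1 and SNAI3 moderately higher, ZEB2 lower, and the TWIST1 libraries of both genotypes overlap.

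Within the SNAI family, SNAI2 (Slug), a repressor known from neural crest and mesenchymal stem cells, carried most of the change. It stood at 1.75, 1.78 and 1.86 CPM in the parental libraries and at 44.6, 44.9 and 44.2 CPM in the knockout libraries. The knockout libraries lay together and far above every parental library. The log2 fold change was 4.63 (SE 0.060), a 24.8-fold rise (adjusted p = 7.63e-25). The parental libraries still held between 668 and 742.0 estimated counts of SNAI2, well above the floor.

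SNAI1 (Snail), the family member best known as a short-lived repressor of E-cadherin, was the highest SNAI gene per kilobase in parental cells. Its levels were 2.78, 2.36 and 2.56 CPM in the parental libraries, against 5.84, 6.71 and 5.96 CPM after knockout. All knockout libraries exceeded all parental libraries, by a smaller factor than for SNAI2. The log2 fold change was 1.27 (SE 0.088), 2.41-fold (adjusted p = 1.63e-11). SNAI3, the least studied of the 3, was the lowest of the 3 per kilobase. It stood at 0.310, 0.326 and 0.291 CPM in the parental libraries, against 0.747, 0.783 and 0.671 CPM after knockout. Again no libraries overlapped, and the log2 fold change was 1.25 (SE 0.16; adjusted p = 5.56e-07).

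The fold estimates of SNAI1 and SNAI3 lay close together, and that of SNAI2 far above them. A ratio of 2 paralogues within a library does not depend on the scaling between libraries. The log2 ratio of SNAI2 to SNAI1 counts went from -0.51 ± 0.14 in the parental to 2.86 ± 0.10 (SD, n = 3) in the knockout libraries, a difference of 3.37. The exact two-sided permutation test gave p = 0.1, the smallest that 3 against 3 libraries allow, and 0.125 after adjustment over 5 such ratios. The SNAI2 to SNAI3 ratio differed by 3.39 in log2 units with the same exact p = 0.1. The SNAI3 to SNAI1 ratio was -3.05 ± 0.17 before and -3.07 ± 0.096 after knockout (SD, n = 3), a difference of -0.02 (exact permutation p = 0.9) that lay between -0.077 and 0.076 when each library was left out in turn. As a share of all SNAI counts, SNAI2 held 38.5% ± 2.00 before and 86.6% ± 0.790 after knockout (SD, n = 3), and SNAI1 held 54.8% ± 2.30 and 12% ± 0.742. Per kilobase of transcript the SNAI2 share was 30.4% ± 1.79 before and 81.8% ± 1.01 after knockout. The summed SNAI level was 4.67 ± 0.192 CPM in parental and 51.5 ± 0.813 CPM in knockout libraries.

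The ZEB genes moved in opposite directions. ZEB1, a large zinc finger and homeodomain repressor of E-cadherin and of the miR-200 genes, stood at 6.37, 7.06 and 7.35 CPM in the parental libraries, against 81.5, 77.4 and 72.8 CPM after knockout. Every knockout library was above every parental one. The log2 fold change was 3.48 (SE 0.064), an 11.1-fold rise (adjusted p = 7.35e-22).

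ZEB2, its close paralogue with roles in neural crest and nervous system development, is the longest transcript of the 7. It stood at 142.9, 150.1 and 151.0 CPM in the parental libraries, against 78.8, 75.2 and 70.4 CPM after knockout. The groups did not overlap, and each knockout library lay below all parental ones. The log2 fold change was -0.98 (SE 0.052), 1.98-fold lower (adjusted p = 1.06e-13). ZEB2 remained well detected in the knockout, with between 19396 and 20153 estimated counts per library. Tested against a fold of 2 rather than against no change, ZEB2 did not pass (edgeR glmTreat adjusted p = 0.771), nor did SNAI3 (0.0626).

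The result was a changed ZEB composition. ZEB1 was 4.27%, 4.49% and 4.64% of the summed ZEB counts in the parental libraries and 50.8%, 50.7% and 50.8% in the knockout libraries. The 3 knockout libraries differed little in this share. The log2 ratio of ZEB1 to ZEB2 counts went from -4.42 ± 0.064 to 0.05 ± 0.0045 (SD, n = 3), a 22.1-fold difference (exact permutation p = 0.1, 0.125 adjusted over the 5 ratios). The longer ZEB2 transcript collects more reads per molecule. Per kilobase of the principal transcript, ZEB1 held 7.60% ± 0.309 of the ZEB level before and 64.5% ± 0.0722 after knockout (SD, n = 3). The summed ZEB level was 154.9 ± 4.94 CPM in parental and 152.0 ± 8.64 CPM in knockout libraries with TMM scaling. With scaling by total count only it was 179 ± 7.55 and 131 ± 4.47 CPM, so the size of the difference in the summed level rests on the scaling, while the share does not. The libraries of both genotypes overlapped in the summed level with TMM scaling and not with total counts only.

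**Figure D2:**
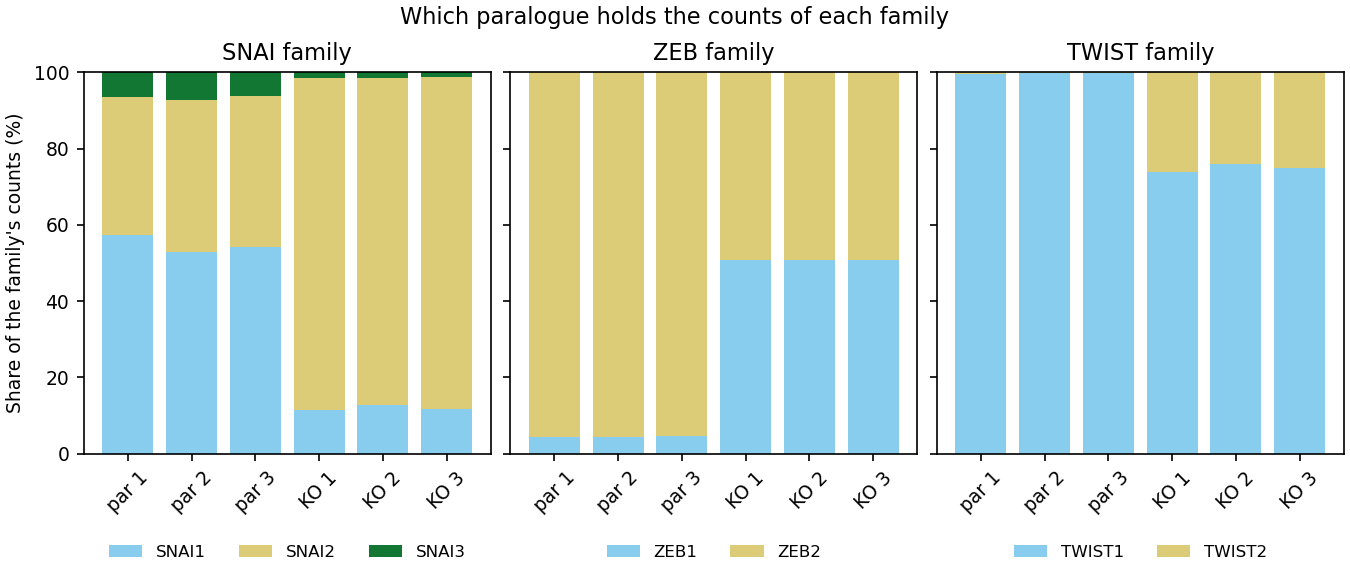
Share of each family's counts (percent) held by each paralogue in every library (par, parental; KO, knockout), in a panel per family. SNAI2 goes from 38.5% to 86.6% of SNAI counts, ZEB1 from 4.47% to 50.8% of ZEB counts and TWIST2 from 0.358% to 25.1% of TWIST counts.

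The start-site regions of the ZEB genes show where E-boxes lie. RefSeq windows (GRCh38.p14, 250 bases before to 50 after a start site) matched ZEB1, ZEB2 and TWIST2, with 7 windows for ZEB1. The motif searched was CAGGTG on both strands (CACCTG on the other), the E-box that SNAI and ZEB zinc fingers are known to prefer. It is one form of the general E-box CANNTG. Of the 7 ZEB1 windows, 1 held 3 of them, another held 1 (at -57) and the other 5 held 0. The window with 3 is shown, beside the only E-box of any form in the ZEB2 window, to make these letters visible; it was picked from 7 windows, against 1 window each for ZEB2 and TWIST2, and the difference was not tested; capitals mark the E-box, and positions count from the start site.
ZEB1 at -242, chr10:31318966-31318991, plus strand: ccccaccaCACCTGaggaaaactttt
ZEB1 at -85, chr10:31319119-31319148, plus strand: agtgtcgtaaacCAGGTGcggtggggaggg
ZEB1 at 34, chr10:31319237-31319265, plus strand: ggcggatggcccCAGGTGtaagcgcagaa
ZEB2 at -180, chr2:144520282-144520311, minus strand: cgatcacgttttCACATGatgctcacgctc

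The ZEB2 sequence is the only CANNTG in its window and is not CAGGTG. The windows of ZEB2 and TWIST2 held 0 matches to CAGGTG, and that of TWIST2 held 0 to CANNTG. Of 35116 RefSeq promoter windows of this length, 20.6% held at least 1 CAGGTG, 0.635% held 3 or more, and 68.7% held a CANNTG. A match is a description of the letters and was not tested as a binding site.

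Besides promoters, ZEB and SNAI1 mRNAs are known targets of microRNAs that block EMT, chiefly the miR-200 family, miR-205 and miR-34a. Their mature sequences from RefSeq (GRCh38.p14) are shown to make the shared seeds visible, with the seed, bases 2 to 8, in capitals. The first 3 share a seed, and the next pair share another that differs from it by 1 base.
hsa-miR-200b-3p: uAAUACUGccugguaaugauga
hsa-miR-200c-3p: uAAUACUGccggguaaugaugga
hsa-miR-429: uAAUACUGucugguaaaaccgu
hsa-miR-200a-3p: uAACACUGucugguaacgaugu
hsa-miR-141-3p: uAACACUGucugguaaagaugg
hsa-miR-205-5p: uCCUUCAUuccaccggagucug
hsa-miR-34a-5p: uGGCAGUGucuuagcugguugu

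Matches to these seeds were counted in the 3′ UTR of each gene's principal transcript in GENCODE v29 (GRCh38). CAGTATT, the match to the first seed, occurred 5 times each in ZEB1 and ZEB2 and once in SNAI2. At least 1 match was found in 14.8% of 18958 3′ UTRs and 5 or more in 0.0316%. CAGTGTT, the match to the second seed, occurred 3 times in ZEB1 and 4 times in ZEB2, and at least once in 16.7% of 3′ UTRs. ATGAAGG, for miR-205, occurred once in ZEB1, and 10.2% of 3′ UTRs held it. CACTGCC, for miR-34a, occurred once each in SNAI1 and SNAI3, and 14.3% of 3′ UTRs held it. The 3′ UTRs of ZEB1 and ZEB2 span 1938 and 5370 bases, and match counts were not adjusted for length. ZEB1 and ZEB2, whose mRNAs moved in opposite directions, thus both hold matches to both miR-200 seeds. An example of each is given with the match in capitals.
ZEB1, chr10:31527619-31527639, plus strand: ttgttttatcttatCAGTATT
ZEB2, chr2:144389053-144389073, minus strand: gcactaccatacatCAGTATT
ZEB1, chr10:31528032-31528052, plus strand: aaaatcatcagaatCAGTGTT
ZEB2, chr2:144389237-144389257, minus strand: gcaaaaattttgtaCAGTGTT
ZEB1, chr10:31528068-31528088, plus strand: atatgtggtaacatATGAAGG
SNAI1, chr20:49988128-49988148, plus strand: ccccacatccttctCACTGCC

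Host transcripts were looked at only for miR-200c and miR-141, miR-205 and miR-34a, and not for miR-200a, miR-200b or miR-429. Mature microRNAs were not measured in poly(A)-enriched RNA. MIR200CHG, the host of miR-200c and miR-141, had 2, 3 and 4 estimated counts in parental and 0, 0 and 0 in knockout libraries and was not tested. MIR205HG (log2 fold change 0.36, adjusted p = 0.517) and MIR34AHG (-0.17, adjusted p = 0.584) did not pass the edgeR test; under total counts only MIR34AHG did (-0.59, adjusted p = 0.0406).

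The TWIST genes differed from each other most. TWIST2 (Dermo-1), known from dermal and skeletal precursors, was close to the floor in parental cells at 0.102, 0.0529 and 0.0527 CPM, from 39, 20 and 21 estimated counts. In the knockout libraries it stood at 7.08, 6.56 and 6.57 CPM, from 1811, 1700 and 1810 counts. Parental replicate 1 was the highest of the parental libraries and still far below each knockout library. The log2 fold change was 6.60 (SE 0.16), 96.9-fold (adjusted p = 1.69e-17), and 7.01 without parental replicate 1. Summed over libraries, the parental TWIST2 count before scaling was 1.5% of the knockout count. Among genes averaging at least 20000 knockout counts, the 20 with the lowest parental share of that count had a median share of 0.586%. These genes were thus picked for low values. With this share taken off, the log2 fold change of TWIST2 was 7.28.

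TWIST1, the paralogue mutated in a craniosynostosis syndrome, was well expressed in both genotypes. Its levels were 20.9, 17.8 and 18.1 CPM in the parental libraries, against 20.1, 20.8 and 19.5 CPM after knockout. The groups overlapped because parental replicate 1 was above all knockout libraries and the other parental libraries were below them. The log2 fold change was 0.09 (SE 0.061; adjusted p = 0.212), and the value plus or minus 1.96 SE spanned -0.03 to 0.21. Its direction depended on the scaling, and its call on the scaling and on 1 library. The TWIST1 value was -0.34 (adjusted p = 0.000143) with total counts only, -0.12 (adjusted p = 0.0887) with upper-quartile scaling, and 0.18 (adjusted p = 0.00186) without parental replicate 1.

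TWIST2 made up 0.487%, 0.296% and 0.290% of TWIST counts in the parental libraries and 26.1%, 24.0% and 25.2% in the knockout libraries. The log2 ratio of TWIST1 to TWIST2 went from 8.14 ± 0.42 to 1.58 ± 0.081 (SD, n = 3), a difference of -6.56 (exact permutation p = 0.1, 0.125 adjusted over the 5 ratios). Per kilobase the TWIST2 share was 0.424% ± 0.133 before and 28.4% ± 1.14 after knockout.

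**Figure D3:**
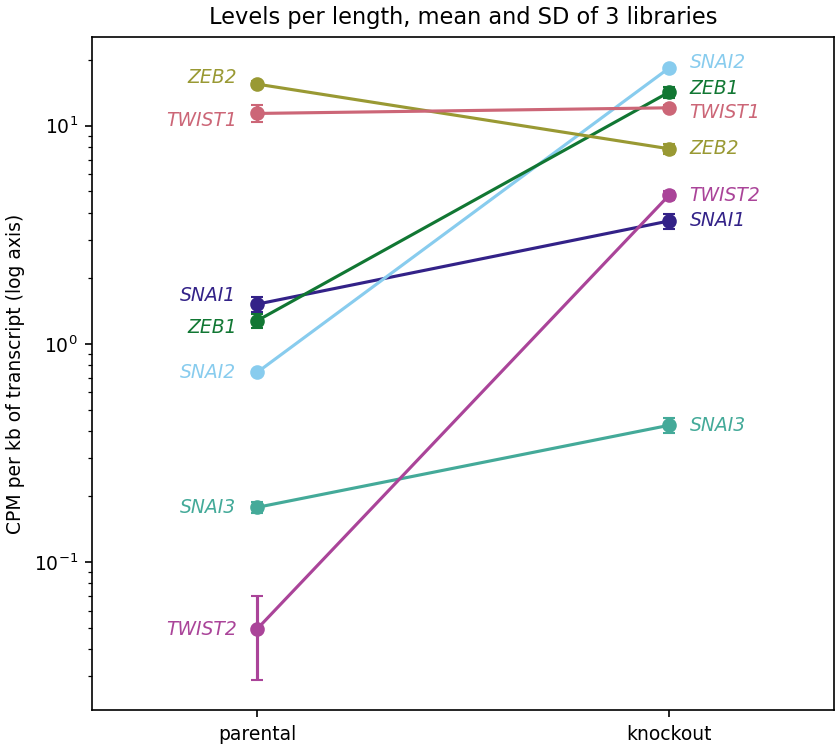
CPM per kilobase of principal transcript (log axis) for the 7 genes, at parental and knockout; points are means of 3 libraries, bars are SD and lines join the same gene. ZEB2 and TWIST1 lead in the parental libraries, and SNAI2, ZEB1 and TWIST1 in the knockout libraries.

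Counts and CPM grow with transcript length, so levels of different genes are set in order per kilobase. In parental libraries the order in CPM per kilobase was ZEB2 (15.5 ± 0.466), TWIST1 (11.4 ± 1.03), SNAI1 (1.52 ± 0.124), ZEB1 (1.28 ± 0.0928), SNAI2 (0.740 ± 0.0229), SNAI3 (0.178 ± 0.01) and TWIST2 (0.0494 ± 0.0204; SD, n = 3 throughout). In knockout libraries it was SNAI2 (18.4 ± 0.144), ZEB1 (14.2 ± 0.810), TWIST1 (12.1 ± 0.381), ZEB2 (7.84 ± 0.445), TWIST2 (4.80 ± 0.214), SNAI1 (3.66 ± 0.282) and SNAI3 (0.424 ± 0.0330). No neighbours in either order overlapped in their libraries. Parental cells thus had 2 leading factors, ZEB2 and TWIST1, and knockout cells had 3 above 10 CPM per kilobase: SNAI2, ZEB1 and TWIST1. The order rests on the length used. With all annotated exons merged, TWIST1 (9.33) stood above ZEB2 (5.91) in parental cells, and SNAI2 (13.1), TWIST1 (9.90) and ZEB1 (8.93) led in knockout cells.

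The genes lie apart in the genome, with GENCODE v29 positions on GRCh38 as follows. SNAI1 spans chr20:49982999-49988886, SNAI2 chr8:48917604-48921740, SNAI3 chr16:88677682-88686493 and ZEB1 chr10:31318495-31529814. ZEB2 spans chr2:144364364-144524583, TWIST1 chr7:19020991-19117672 and TWIST2 chr2:238848032-238910543. Antisense genes overlap exons of SNAI3 (163 bases), ZEB1 (366 bases), ZEB2 (1299 bases) and TWIST1 (141 bases, from AC003986.2). The labels do not state that counting used strand, so reads in these exons cannot be told apart.

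ZEB2-AS1 fell with ZEB2, from 0.928 ± 0.0757 to 0.162 ± 0.0405 CPM (log2 fold change -2.52, SE 0.19, adjusted p = 7.71e-11). SNAI3-AS1 rose with SNAI3, from 3.50 ± 0.174 to 5.87 ± 0.323 CPM (log2 fold change 0.74, SE 0.080, adjusted p = 2.28e-08). ZEB1-AS1 was at 4.0 ± 0.0447 and 5.03 ± 0.199 CPM (log2 fold change 0.33, SE 0.077, adjusted p = 0.000592), a rise that turned to -0.09 (adjusted p = 0.217) with total counts only and did not pass with upper-quartile scaling (0.13, adjusted p = 0.108).

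Protein-coding neighbours changed in both directions. HDAC4, 137.625 kb from TWIST2, fell from 42.4 to 21.7 CPM (log2 fold change -0.97, SE 0.057) while TWIST2 rose. HDAC9, 18.575 kb from TWIST1, fell (-0.87, SE 0.057). GTDC1, 31.796 kb from ZEB2, had a log2 fold change of 0.00 and did not pass the test, but it fell under upper-quartile scaling (-0.20, adjusted p = 0.0074) and under total counts only (-0.42, adjusted p = 3.37e-05). On the other side, ARHGAP12 (1.02, SE 0.052) and ZNF438 (1.54, SE 0.090), which flank ZEB1, rose less than ZEB1, and RNF114 (0.82, SE 0.047), beside SNAI1, rose too. Of the 18 tested antisense and neighbouring genes, 7 rose, 8 fell and 3 did not pass (median -0.14). Beside this list and those below, 36.3% of all tested genes rose and 37.5% fell.

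Genes that these factors are known to repress in epithelia changed in both directions. Among all tested genes 36.3% rose and 37.5% fell. Of the 30 listed epithelial genes 29 were tested: 14 rose, 10 fell and 5 did not pass. Their median was 0.22, and -0.20 with total counts only, where the median of all genes moved from -0.06 to -0.48. CDH1 (E-cadherin) was nearly silent before the knockout, at 0.179, 0.236 and 0.123 CPM in the parental libraries, against 0.117, 0.104 and 0.134 CPM after knockout. These values overlapped, and the log2 fold change of -0.59 (SE 0.28) did not pass (adjusted p = 0.0669). That call rested on the scaling, since CDH1 fell by the same test under upper-quartile scaling (-0.79, adjusted p = 0.0219) and under total counts only (-1.01, adjusted p = 0.00608).

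Of the keratins of simple epithelia on that list, KRT18 rose from 6.13 to 229 CPM (5.22, SE 0.063) and KRT8 from 0.777 to 31.8 CPM (5.35, SE 0.077). KRT19 had too few counts to be tested. The protease inhibitor SPINT1 rose as well (3.10, SE 0.061). Among those that fell were ESRP1, an epithelial splicing regulator, from 3.51 to 0.0574 CPM (-5.91, SE 0.20), and the polarity genes PATJ (-2.29, SE 0.078) and LLGL2 (-1.96, SE 0.080). Of 5 epithelial cell markers 3 were tested: KRT7 rose (7.88), EPCAM fell (-3.32) and CDH1 did not pass.

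The factors that hold cells in an epithelial state were mixed. Of 15 listed, 9 were tested, with 5 higher, 3 lower and 1 not past the test (median 1.51). KLF4 rose (5.68, SE 0.11), as did ELF3 (5.40), and TP63 fell from 16.1 to 3.97 CPM (-2.02, SE 0.062), as did FOXA1 (-3.56, SE 0.13). GRHL2, OVOL1 and OVOL2, which oppose ZEB1 in epithelia, had too few counts to be tested.

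Most of the mesenchymal genes listed rose. Of 22 genes 19 rose, 2 fell and 1 did not pass, against 36.3% higher and 37.5% lower among all tested genes. The median of the 22 was 2.77 (2.35 with total counts only). CDH2 (N-cadherin), the cadherin that replaces E-cadherin in EMT, rose from 22.2 ± 0.412 to 613 ± 34.2 CPM (4.79, SE 0.059). VIM (vimentin) was already high and rose from 983 to 2688 CPM (1.45, SE 0.050), and FN1 (fibronectin) rose by 1.61 (SE 0.069). The exceptions were LEF1, a Wnt effector, which fell (-2.59, SE 0.21), and MMP9 (-1.0, SE 0.225). The fibroblast markers COL1A1 and COL1A2 are also on this list and are among its largest rises.

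Other transcription factors tied to EMT changed in both directions. Of 17 tested, 10 rose, 6 fell and 1 did not pass (median 0.95). ETS1 (7.95), FOXC2 (7.97) and PRRX1 (7.22) had log2 rises above those of all 7 SNAI, ZEB and TWIST genes in the reported fit. Their parental levels were low: 0.485 CPM for ETS1, 0.238 for FOXC2 and 0.639 for PRRX1. The share taken off for TWIST2, which put TWIST2 at 7.28, was not taken off these values, so the ranking is of uncorrected folds. Whether the low parental levels exceed that 0.586% share was not tested, so the sizes of these folds are uncertain. PRRX2, the paralogue of PRRX1, fell from 5.07 to 0.182 CPM (-4.80, SE 0.13). SCRT2, a SNAI-related zinc finger factor of neurons, fell too, from 1.34 to 0.0102 CPM (-6.99, SE 0.29). Its knockout mean lay below the floor of 3 counts (0.0109 to 0.0117 CPM in knockout libraries), so the size of that fold is uncertain. HMGA2 fell from 172 to 81.4 CPM (-1.08, SE 0.047).

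**Figure D4:**
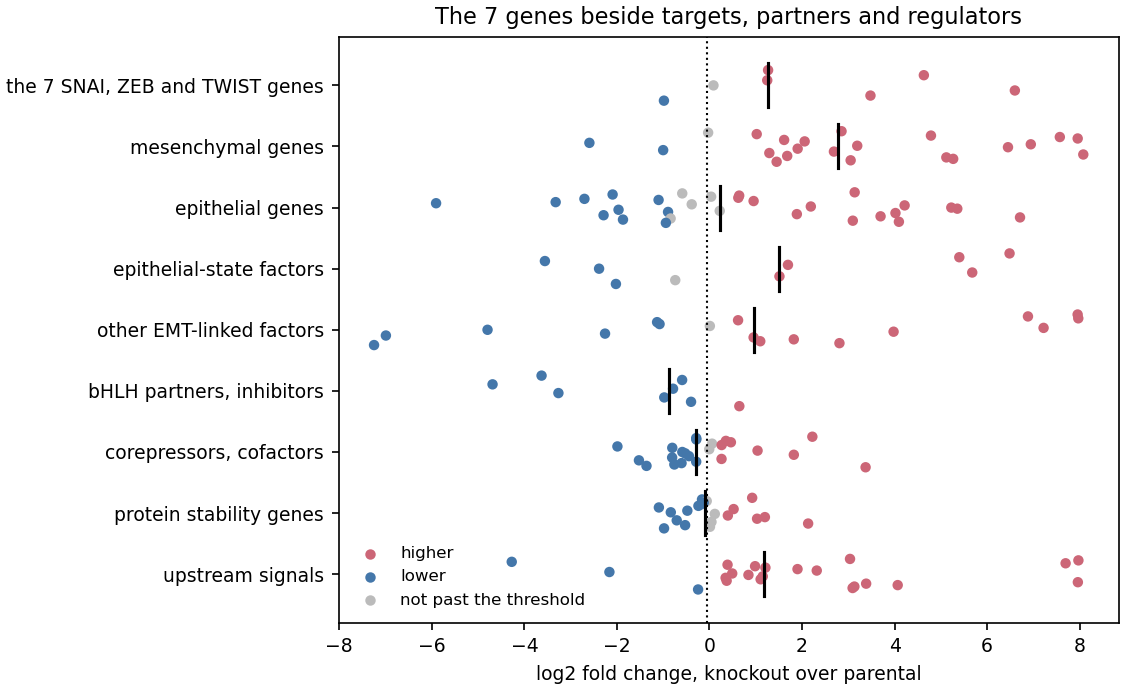
Log2 fold change (knockout over parental) of the 7 genes and of each tested gene in 8 lists, with black bars at the medians and a dotted line at the median of all tested genes; colour marks genes past the edgeR test in each direction, and heights within a row are spread for legibility. Mesenchymal genes (median 2.77) and upstream signals (median 1.18) lie mostly above 0, TWIST partners and inhibitors (median -0.88) mostly below.

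TWIST proteins need E-protein partners, and ID proteins titrate those partners away. Of 8 tested genes of this kind 7 fell and 1 rose (median -0.88), against 37.5% lower and 36.3% higher among all tested genes. ID2 fell from 262 to 10.2 CPM (-4.69, SE 0.056) and ID4 from 81.8 to 8.51 CPM (-3.26, SE 0.053). ID3 (-0.79, SE 0.054) and ID1 (-0.59, SE 0.056) fell less. Of the E proteins, TCF12 fell from 379 to 193 CPM (-0.98, SE 0.052) and TCF3 slightly (-0.40, SE 0.051), whereas TCF4 rose from 161 to 251 CPM (0.65, SE 0.052). HAND2, a bHLH factor that can pair with TWIST1, fell from 34.1 to 2.75 CPM (-3.63, SE 0.063).

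Of 23 corepressors and cofactors 8 rose, 13 fell and 2 did not pass (median -0.29); the number that rose was 4 with total counts only. The 3 LIM proteins of the Ajuba family, which bridge SNAI proteins to corepressors, all rose: WTIP from 3.09 to 32.0 CPM (3.37, SE 0.065), AJUBA from 38.7 to 181 CPM (2.22, SE 0.048) and LIMD1 from 10.9 to 38.5 CPM (1.82, SE 0.052). The Polycomb subunits EZH2 (143 to 35.9 CPM, -1.99, SE 0.048) and SUZ12 (-1.36, SE 0.053) and the CoREST scaffold RCOR1 (-1.52, SE 0.050) fell.

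Among 20 genes that act on the stability of SNAI, ZEB or TWIST proteins, 6 rose, 10 fell and 4 did not pass (median -0.09). The ubiquitin ligase subunit FBXL14, which targets SNAI1 and other EMT factors, fell from 35.3 to 16.5 CPM (-1.09, SE 0.065). FBXO45 (-0.84, SE 0.064) and the deubiquitinase USP27X (-0.98, SE 0.067) fell as well. The kinases PRKD1 (2.13, SE 0.058) and LATS2 (1.2, SE 0.050), which phosphorylate SNAI1, rose. Protein levels were not measured.

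Upstream signals rose in 19 of 22 genes and fell in 3 (median 1.18, and 0.76 with total counts only). The number that rose was 15 with total counts only. Among all tested genes 36.3% rose and 37.5% fell. The ligands BMP4, from 0.872 to 219 CPM (7.97), and TGFB2, from 0.586 to 146 CPM (7.96), were among the rises. Neither value had the share described for TWIST2 taken off. Whether the low parental levels of BMP4 and TGFB2 exceed that share was not tested, so the sizes of their folds are uncertain. The receptor TGFBR1 rose from 7.70 to 129 CPM (4.07, SE 0.064). BMP7 fell from 29.2 to 1.51 CPM (-4.27, SE 0.070) and NOTCH1 from 113 to 25.2 CPM (-2.16, SE 0.067). YBX1, a translational activator of SNAI1, fell slightly (-0.25).

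For each factor, the genes closest in profile over the 6 libraries were ranked by Euclidean distance of centred log2 CPM among genes averaging 1 CPM or more. With 2 groups of 3, this distance mostly reflects the size of the genotype difference. ZEB2 had the closest match, TCF12 at a distance of 0.0279, followed by RABEP1 (0.0308). The nearest to SNAI2 were PSMB8 (0.109), CDC42EP3 (0.115) and KITLG (0.133), and to ZEB1 SSPN (0.112) and LRP12 (0.115). SNAI1 was nearest to STX4 (0.0917), SNAI3 to SERPINB8 (0.0859) and TWIST1 to RPL28 (0.0476). TWIST2 had the most distant neighbour of the 7, FOXS1 at 0.183.

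**Figure D5:**
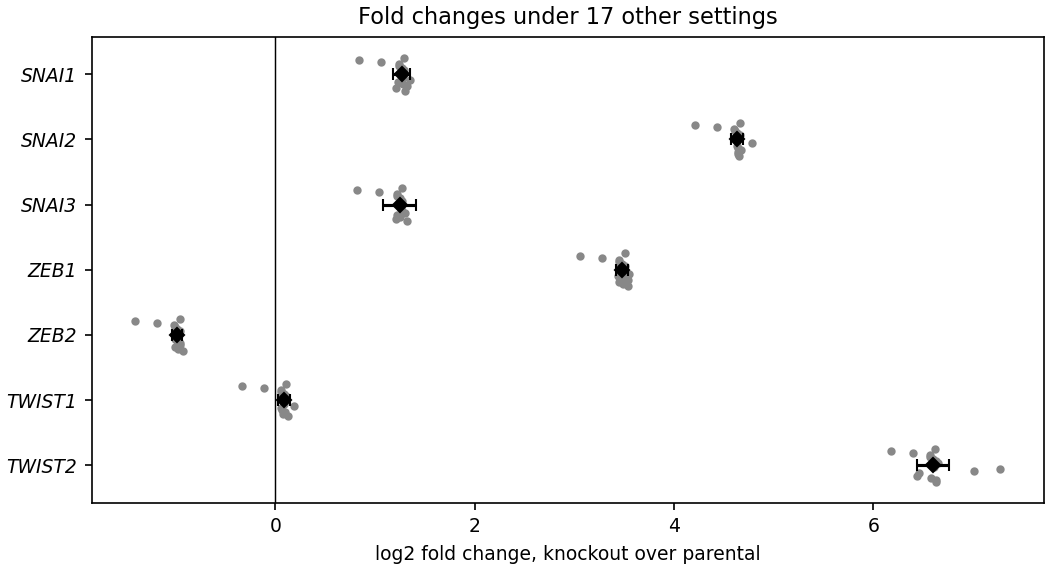
Log2 fold change of the 7 genes under the reported fit and each alternative setting, 1 row per gene; black diamonds with SE bars are the reported fit and grey points the alternatives. The points of SNAI2, ZEB1 and TWIST2 stay above 3 and those of ZEB2 below -0.9, whereas TWIST1 spans -0.34 to 0.18 and crosses 0.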

How the data were processed

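RNA of 3 parental and 3 EWS-FLI1 knockout libraries was enriched with oligo-dT beads, made into libraries with the NEBNext Ultra II kit and sequenced on a NovaSeq, per the labels' protocols. The authors deposited estimated counts per gene, made with kallisto 0.48.0 on hg38 per the submitters' processing notes; not given in the sources used here: the annotation release, how transcripts were summed, and strand. kallisto divides reads that match several transcripts, so counts need not be whole.

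Counts were rounded, filtered with filterByExpr (minimum count 10, total 15), scaled by TMM and tested with edgeR 4.0.16 in R 4.3.3 (quasi-likelihood, robust, genotype as the only term, two-sided, Benjamini-Hochberg at 0.05). The biological coefficient of variation was 7.53%. Paralogue ratios used exact permutation tests. Lengths, overlaps and UTRs came from GENCODE v29, whose stable identifiers match those of all 7 genes. The steps were tested on simulated counts in which few genes changed, in both directions. In the data 73.8% of tested genes passed, so that simulation cannot check the scaling. Chi-square per degree of freedom between replicates was 11.1 to 78.1, so no pair agreed within sampling noise.

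The 7 genes and all lists were chosen with earlier results of these data known. Named were the 7, up to 3 genes per list and direction by smallest adjusted p, CDH1, VIM, CDH2, FN1, MIR200CHG, the E and ID proteins, the antisense and neighbouring genes, and up to 3 nearest profiles per gene (1 such gene is not reported here); MIR205HG, MIR34AHG, GRHL2, OVOL1 and OVOL2 were named besides, after their values were seen. Alternatives were DESeq2 1.42.0, limma 3.58.1 voom, glmTreat, other scalings and filters, a replicate term and leaving out each library.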

Additional observations from a re-analysis of the deposited data

How the results depend on the processing

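The direction and call of SNAI1, SNAI2 and ZEB1 were the same under every alternative run, with log2 fold changes of 0.84 to 1.35, 4.21 to 4.79 and 3.05 to 3.55. SNAI3 lay between 0.82 and 1.32, ZEB2 between -1.41 and -0.93 and TWIST2 between 6.18 and 7.28. Tested against a fold of 2 (glmTreat), SNAI3 (1.25) and ZEB2 (-0.98) lost their calls, no member was called lower (0), and 5153 genes were called higher and 4412 lower, since that test asks for more than any change. TWIST1 was -0.34 with total counts only and -0.12 with upper-quartile scaling, and leaving out each library in turn gave 0.061 to 0.18, past the test at 0.18 without parental replicate 1; the cause was not tested. With total counts only, 2 members were called lower, 4 corepressors higher and 1 microRNA host lower, 7370 genes were higher and 14949 lower, and 33.0% of calls were higher against 49.1% in the reported fit; with upper-quartile scaling 40.5% were. The SNAI3 to SNAI1 ratio difference ranged from -0.077 to 0.076 when each library was left out. With the replicate number as a block, ZEB2 was at -0.99 and TWIST2 at 6.61. In that fit 10041 genes were higher and 10377 lower, and no member's call changed. Same-numbered libraries did not deviate together (correlations -0.019, -0.020 and -0.0055). With 3 libraries a group, these correlations cannot decide whether same-numbered libraries were handled together. With 3 libraries a group, no exact test can go below p = 0.1. Counts were few for TWIST2 in parental libraries and for MIR200CHG in all libraries.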
